A study of Mus musculus with 2 samples.

Results

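Potassium channels, TRP channels, the mechanosensitive channel Piezo1 and the store-operated calcium entry pair Stim1 and Orai1 were examined in sorted mouse microglia. The 10 genes (Kcnk13, Kcnk6, Kcnn4, Kcna3, Kcnj2, Trpv2, Trpm2, Piezo1, Stim1 and Orai1) were chosen by name for these channel classes. No rule on their values was used, but earlier results of these data were known when they were chosen. They were found by Ensembl identifier among the 53801 genes listed. Bulk RNA-seq was available from 2 libraries, each from 1 mouse, and both belong to the same group. The mice carried Cx3cr1(CreER/wt), a tamoxifen-inducible Cre placed in 1 copy of Cx3cr1, on a C57BL/6 background with no floxed allele named, so that every mouse also lacked 1 functional copy of Cx3cr1. They were given tamoxifen at 75 mg/kg per day for 4 days, since they served as controls for conditional knockouts made with the same driver. Sham surgery followed 14 days after the first injection, and the left (ipsilesional) hemisphere was taken 3 days after surgery. The labels describe male mice aged 8 to 10 weeks, whereas the methods of the study give another age range and both sexes. Cells were sorted as CD11c-, Ly6G-, CD11b+ and CD45low. The treatment field of the labels reads none although the titles name sham surgery, and libraries from mice with cerebral ischemia were not analysed here. With a single group of 2 libraries no comparison of conditions can be tested, so levels, their order and the spread between the mice are described.

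Microglia hold their membrane potential with potassium channels, and this potential sets the driving force for calcium entry. The two-pore domain channel THIK-1, encoded by Kcnk13, is known as the tonically active potassium channel of microglia and supports process surveillance and the potassium efflux that precedes NLRP3 inflammasome activation. Inward rectifying, voltage-gated and calcium-activated potassium channels are better known from activated or cultured microglia. Calcium enters through TRP and mechanosensitive channels, and through Orai pores that open when the endoplasmic reticulum sensor STIM1 detects an empty store.

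All potassium channels share a short filter that selects the ion, and its coding sequence is printed for 4 of the potassium channel members because it is the feature that places these otherwise unlike proteins in 1 class. The stretches were read from the GENCODE M21 transcripts (GRCm38). Each is 30 bases of the coding strand, 5′ to 3′, and capitals mark the 5 codons that match ACNNNNGGNTNNGGN in frame, where N is any base.
Kcnk13: gtggtttctACCATAGGGTTTGGGatgaca
Kcnk6: cttgtcaccACCGTGGGCTATGGCtacacg
Kcna3: accatgacaACTGTTGGTTATGGTgatatg
Kcnj2: acccagacaACCATTGGCTATGGTttcagg
The matches begin at codon 110 of the 405 codons of Kcnk13, codon 106 of 313 in Kcnk6, codon 397 of 528 in Kcna3 and codon 142 of 428 in Kcnj2. On the genome, the Kcnk13 stretch runs over an intron at chr12:99966265-100061015 on the plus strand. The Kcnk6 stretch also runs over an intron, at chr7:29225854-29232177 on the minus strand. The others each lie in 1 exon on the plus strand, at chr3:107037602-107037631 for Kcna3 and chr11:111072198-111072227 for Kcnj2. Searched on the coding strand only, these letters occurred in 524 of 21764 coding genes (2.41%), in 66 of 77 genes of potassium channel pores, and in 0 of the 5 members that are not potassium channels. A gene without a match only lacks these letters.

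Library 1 held 23381026 counts on genes and library 2 held 41142609, and levels are given in CPM, the counts of a gene after each library total is set to 1000000. Where no read was found, 3 counts could have been missed, equal to 0.128 CPM at the depth of library 1 and 0.0729 CPM at that of library 2. The label was checked against 10 microglia marker genes, all of which were counted in both libraries. They summed to 39111 CPM in library 1 against 44410 CPM in library 2. Of these markers 1, Sall1 (337 and 146 CPM), was more than 2-fold lower in library 2, and 0 were more than 2-fold higher. The libraries stood apart in markers of other cells. All 11 neutrophil markers were more than 2-fold higher in library 2, where they summed to 62045 CPM against 4570 CPM in library 1, although the gate excluded Ly6G+ cells. The 5 monocyte markers summed to 676 and 3337 CPM, with 2 of them more than 2-fold higher and most of the sum from Chil3 (455 and 2901 CPM), the 4 choroid plexus markers to 23.2 and 368 CPM, and the 5 basophil or mast cell markers to 2 counts in library 1 and 6881 counts in library 2. The 7 markers of border macrophages, which the Cx3cr1 driver also reaches, summed to 709 CPM in library 1 against 338 CPM in library 2, with 3 of them, Mrc1 and F13a1 included, more than 2-fold lower and the others closer to level. For the remaining lists, the sums in the same order were 52.6 and 57.4 CPM for B cell, 0.171 and 2.82 for T cell, 11.3 and 20.5 for astrocyte, 2.57 and 3.84 for neuron, 98.6 and 107.7 for oligodendrocyte and 22.2 and 20.1 for endothelial markers, while erythroid markers had 5 and 575 counts. Cd3e, a defining T cell gene, was at 0 in both. Because the samples are bulk, fewer cells of a type and less RNA per cell cannot be told apart, and the part of these other cells in the values below was not tested.

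All 10 members were counted, meaning at least 10 counts in both libraries, a level reached by 25.0% of all listed genes. The spread between the mice was as large as the mean for some members and small for others. Of the 10 members, 9 were lower in library 2, beside 61.5% of counted genes. With TMM or DESeq2 scaling, which set the typical gene near an equal level in both libraries, 7 were lower, beside 50.6% and 49.5% of genes. In CPM, 6 members were lower by more than 2-fold, where 25.9% of the 13445 counted genes were lower to that extent. None of the members was more than 2-fold higher in library 2, against 5.74% of counted genes. The median log2 ratio of CPM (library 2 over library 1) was -1.50 over the members and -0.26 over all counted genes. Together the members took 1219 CPM of library 1 and 537.5 CPM of library 2.

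**Figure D1:**
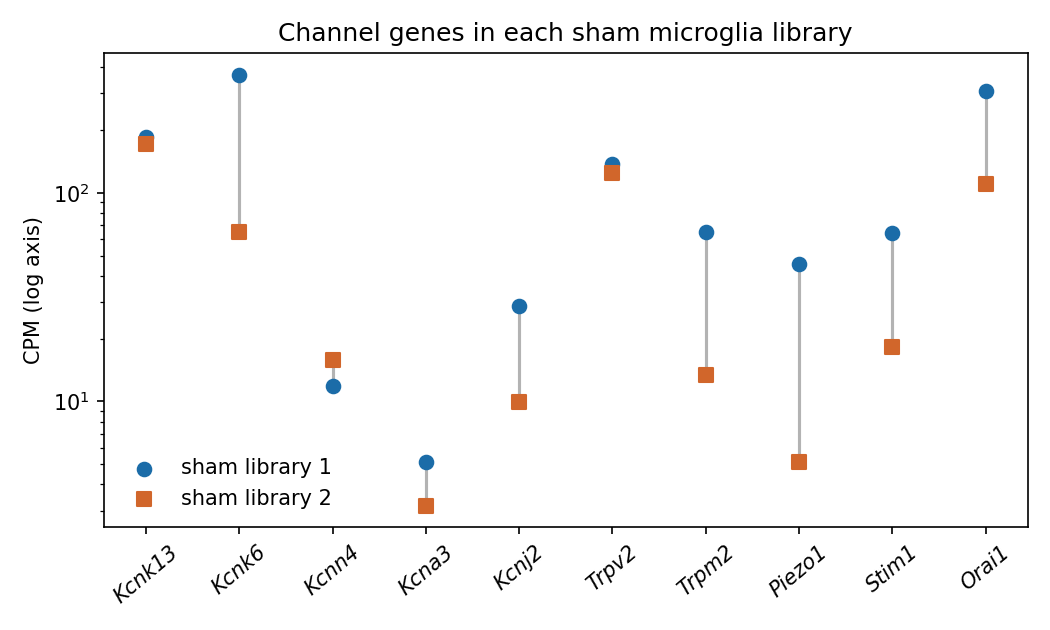
Level of each member in CPM on a log axis, with 1 point for each of the 2 sham libraries (circle, library 1, and square, library 2). Kcnk13 and Trpv2 show nearly the same level in both libraries, whereas Piezo1 (45.4 and 5.10 CPM), Kcnk6 (369 and 64.7 CPM) and Trpm2 (65.1 and 13.3 CPM) lie far apart.

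Among the potassium channels, Kcnk13 (ENSMUSG00000045404, chr12:99964499-100062682, plus strand) was nearly level between the mice. It had 4345 counts, or 185.8 CPM, in library 1 and 7072 counts, or 171.9 CPM, in library 2 (178.9 ± 9.86 CPM, mean ± SD, n = 2). The libraries differed by 1.08-fold. The log2 ratio was -0.11, with an exact 95% interval of -0.17 to -0.06 that, like every such interval here, leaves out the variation from mouse to mouse. This small difference has no stable direction, since the ratio was 0.14 with TMM scaling and 0.16 with DESeq2 size factors.

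Kcnk6 (ENSMUSG00000046410, chr7:29221926-29232515, minus strand) encodes TWIK-2, a two-pore domain channel known for potassium efflux in macrophages exposed to ATP. It stood at 369 CPM in library 1 but at 64.7 CPM in library 2, from 8625 and 2662 counts. Library 2 was thus 5.70-fold lower (log2 ratio -2.51, counting interval -2.57 to -2.45), and the SD of 215 CPM was close to the mean of 217 CPM. The order of both two-pore channels therefore turned over between the mice: per kilobase of transcript, Kcnk6 had 90.3 CPM and Kcnk13 60.4 CPM in library 1, whereas Kcnk13 was 3.52 times Kcnk6 in library 2.

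Kcnn4 (ENSMUSG00000054342, chr7:24370263-24386690, plus strand) encodes KCa3.1, a potassium channel that opens when calcium binds its calmodulin. It had 277 counts, or 11.8 CPM, in library 1 and 653 counts, or 15.9 CPM, in library 2. It was the member that was higher in library 2, by 1.34-fold (log2 ratio 0.42, counting interval 0.22 to 0.63), with a mean of 13.9 ± 2.85 CPM (SD, n = 2).

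Kcna3 (ENSMUSG00000047959, chr3:107036169-107038070, plus strand) encodes the voltage-gated channel Kv1.3, which is studied as a target on activated microglia and T cells. It had 120 counts, or 5.13 CPM, in library 1 and 130 counts, or 3.16 CPM, in library 2. The level was 1.62-fold lower in library 2, and its counting interval was the widest of the members (log2 ratio -0.70, interval -1.07 to -0.33). T cells also express Kcna3. Their 4 markers summed to 0.171 and 2.82 CPM, nearly all of it from Cd3d (3 and 109 counts), and their part in the Kcna3 level was not tested.

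Kcnj2 (ENSMUSG00000041695, chr11:111066164-111076821, plus strand) encodes the inward rectifier Kir2.1, which keeps the membrane near the potassium equilibrium potential. It had 671 counts, or 28.7 CPM, in library 1 and 409 counts, or 9.94 CPM, in library 2. Library 2 was 2.89-fold lower (log2 ratio -1.53, counting interval -1.71 to -1.35), around a mean of 19.3 ± 13.3 CPM (SD, n = 2).

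Trpv2 (ENSMUSG00000018507, chr11:62574486-62600515, plus strand), a TRP channel of macrophages that has been tied to phagocytosis, was the second steady member. It had 3217 counts, or 137.6 CPM, in library 1 and 5140 counts, or 124.9 CPM, in library 2 (131 ± 8.95 CPM, SD, n = 2). The difference of 1.10-fold (log2 ratio -0.14, counting interval -0.20 to -0.08) changed direction with the scaling, to 0.11 with TMM and 0.14 with DESeq2 size factors.

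Trpm2 (ENSMUSG00000009292, chr10:77907722-77970563, minus strand) encodes a calcium-permeable channel opened by ADP-ribose and oxidative stress. Its 1522 counts in library 1 and 549 counts in library 2 gave 65.1 and 13.3 CPM. Library 2 was 4.88-fold lower (log2 ratio -2.29, counting interval -2.43 to -2.14), and the SD of 36.6 CPM was close to the mean of 39.2 CPM.

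Piezo1 (ENSMUSG00000014444, chr8:122481698-122551329, minus strand) encodes a channel gated by membrane tension, and it differed most between the mice among the members. It had 1061 counts, or 45.4 CPM, in library 1 and 210 counts, or 5.10 CPM, in library 2, so that library 2 was 8.89-fold lower (log2 ratio -3.15, counting interval -3.37 to -2.94). Only 0.729% of counted genes had a ratio as low. Piezo1 overlaps Ctu2, a tRNA-modifying enzyme gene on the opposite strand, over 2441 of its 9935 exon bases, and whether reads were counted by strand is not given in the sources used here, so reads of both genes may be mixed or discarded there. Ctu2, named after its values were seen, had 689 and 1204 counts and a log2 ratio of -0.01.

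Stim1 (ENSMUSG00000030987, chr7:102267806-102437319, plus strand) encodes the calcium sensor of the endoplasmic reticulum. It had 1493 counts, or 63.9 CPM, in library 1 and 751 counts, or 18.3 CPM, in library 2, a 3.50-fold lower level (log2 ratio -1.81, counting interval -1.94 to -1.68). Orai1 (ENSMUSG00000049686, chr5:123015074-123030456, plus strand) encodes the pore that STIM1 opens. It had 7171 counts, or 306.7 CPM, in library 1 and 4540 counts, or 110.3 CPM, in library 2, a 2.78-fold lower level (log2 ratio -1.47, counting interval -1.53 to -1.42). Sensor and pore were both lower in library 2, with means of 41.1 ± 32.2 CPM for Stim1 and 208.5 ± 139 CPM for Orai1 (SD, n = 2).

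Genes were ranked against each other by CPM per kilobase of the longest transcript. On this scale the order of the means was Orai1 (111.2 ± 74.0), Kcnk13 (58.1 ± 3.20), Kcnk6 (53.1 ± 52.7), Trpv2 (35.8 ± 2.44), Stim1 (9.41 ± 7.39), Trpm2 (5.39 ± 5.03), Kcnn4 (3.81 ± 0.782), Kcnj2 (3.55 ± 2.44), Piezo1 (3.07 ± 3.46) and Kcna3 (2.18 ± 0.733), each as mean ± SD over 2 libraries. A single gap in this order was wider than the spread between the mice: the lower Trpv2 value of 34.0 lay above the higher Stim1 value of 14.6. The other 8 pairs of neighbours overlapped between the libraries. Orai1 stood first in both libraries, with 163.6 and 58.9 CPM per kilobase, and in library 2 it lay within 1.05-fold of Kcnk13. Orai1, Kcnk13, Kcnk6 and Trpv2 therefore form an upper group and the remaining 6 members a lower one in library 1 as in library 2, where Kcnk6, at 15.8, still lay above Kcnn4, at 4.36. This grouping depends on the length used for Trpm2: with the median length of its protein-coding transcripts in place of the longest, Trpm2 had a mean of 53.7 CPM per kilobase and took place 3 of 10, above Kcnk6 (53.1) and Trpv2. Piezo1 moved from place 7 of 10 in library 1 to the last place in library 2 (5.52 and 0.621 CPM per kilobase). Of the 45 pairs of members, 37 had the same order in both libraries and 28 did not overlap. Pairs of all counted genes were not examined in this way, so these numbers describe the members without setting them apart from other genes.

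The relatives of the members, taken from lists of 164 other channel genes, stood above some members and below others per kilobase. Kcnk12 encodes THIK-2, the closest relative of THIK-1, and had 21.4 CPM per kilobase in library 1 and 3.24 in library 2, against 60.4 and 55.8 for Kcnk13. Its 988 and 263 counts gave a 6.61-fold lower CPM in library 2, whereas Kcnk13 differed by 1.08-fold. Of the other 12 two-pore channel genes, Kcnk12 was the gene counted in both libraries, and Kcnk1 had 3 and 42 counts.

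The Orai family was present as all 3 pores. Orai2, which can form mixed channels with ORAI1, had 34.0 CPM per kilobase in library 1 and 11.9 in library 2, and Orai3 had 54.9 and 62.1. Orai1 made up 64.8% of the summed level of the 3 genes in library 1 and 44.3% in library 2, where Orai3 was the higher gene. Stim2, the sensor that answers smaller drops of store calcium, had 6.72 and 3.41 CPM per kilobase, and Stim1 exceeded it 2.18-fold in library 1 and 1.23-fold in library 2. All 7 other store-operated entry genes were counted. Saraf, which inactivates STIM1, was the highest of them at 280.4 and 379 CPM per kilobase, above Orai1 in both libraries.

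Among the calcium-activated relatives of Kcnn4, the small-conductance genes were near the limit of detection, with 16 and 20 counts for Kcnn1, 5 and 6 for Kcnn2, and 7 and 0 for Kcnn3. Kcnma1, the large-conductance BK channel, had 175 and 151 counts but, as a long transcript, 0.619 and 0.303 CPM per kilobase, below Kcnn4 in both libraries. Of the 39 other voltage-gated potassium channel genes, 3 were counted and 16 had 0 counts in both libraries, Kcna5 among them. Kcnd1, the Kv4.1 channel, led them with 15.2 and 6.20 CPM per kilobase, above Kcna3 in both libraries (2.70 and 1.66), and Kcng2 had 10 and 13 counts. The 1885 and 1349 counts of Kcnd1 gave a log2 ratio of CPM of -1.30. Kcnip3, a calcium-binding partner of Kv4 channels, was the highest auxiliary subunit at 13.5 and 8.99 CPM per kilobase.

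Of the 14 other inward rectifier genes 5 were counted. Kcnj10, the Kir4.1 channel of astrocytes and oligodendrocytes, had 75 and 74 counts, Kcnj16 had 32 and 86 and Kcnj9 had 49 and 52. Per kilobase these 3 genes ran from 0.328 to 0.593 CPM, below Kcnj2 at 5.27 and 1.83 CPM. Kcnj13, the Kir7.1 channel of the choroid plexus, had 4 counts in library 1 against 152 in library 2, and Kcne2, a potassium channel subunit also found in that epithelium, had 10 against 93. Both were higher in the library in which the choroid plexus markers were higher, at 368 against 23.2 CPM, and the part of that epithelium in their levels was not tested.

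Among 26 other TRP genes 7 were counted and 12 had 0 counts in both libraries. Mcoln1, the lysosomal calcium channel TRPML1, was the highest at 19.1 and 25.1 CPM per kilobase, below Trpv2 in both libraries. Trpm4 (8.01 and 4.03), which lets sodium in when calcium is high, lay near Trpm2 in library 1 and above it in library 2 (8.95 and 1.83), and Trpm7 (3.99 and 2.50) and Trpv4 (5.80 and 2.36) were lower than Trpv2. Piezo2, the touch channel of sensory neurons, had 0 counts in both libraries. Tmem63a, a stretch-activated cation channel, had 83.5 and 52.3 CPM per kilobase, far above Piezo1 in both. Tmem63b had 273 and 197 counts.

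Over all lists, 50 of the 164 other channel genes (30.5%) were counted, beside 25.0% of all listed genes, and 51 had 0 counts in both libraries. The same 25.0% stands beside the numbers of counted genes given above for single lists. At least 1 count was found for 21146 of the 53801 listed genes in library 1 and for 22320 in library 2. The share of all genes at 0 in both libraries was not computed. The numbers of channel genes at 0 counts, here and above, are therefore a description and not a trait of channels. Of the 50, 18 (36%) were more than 2-fold lower in library 2, beside 25.9% of all counted genes, and 3 (6.00%) were more than 2-fold higher, near the 5.74% of all genes. The 3 were Kcne2, Kcne3 and Trpm3, the last named after its values were seen (10 and 63 counts). The median log2 ratio was -0.77 over the 50 genes.

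**Figure D2:**
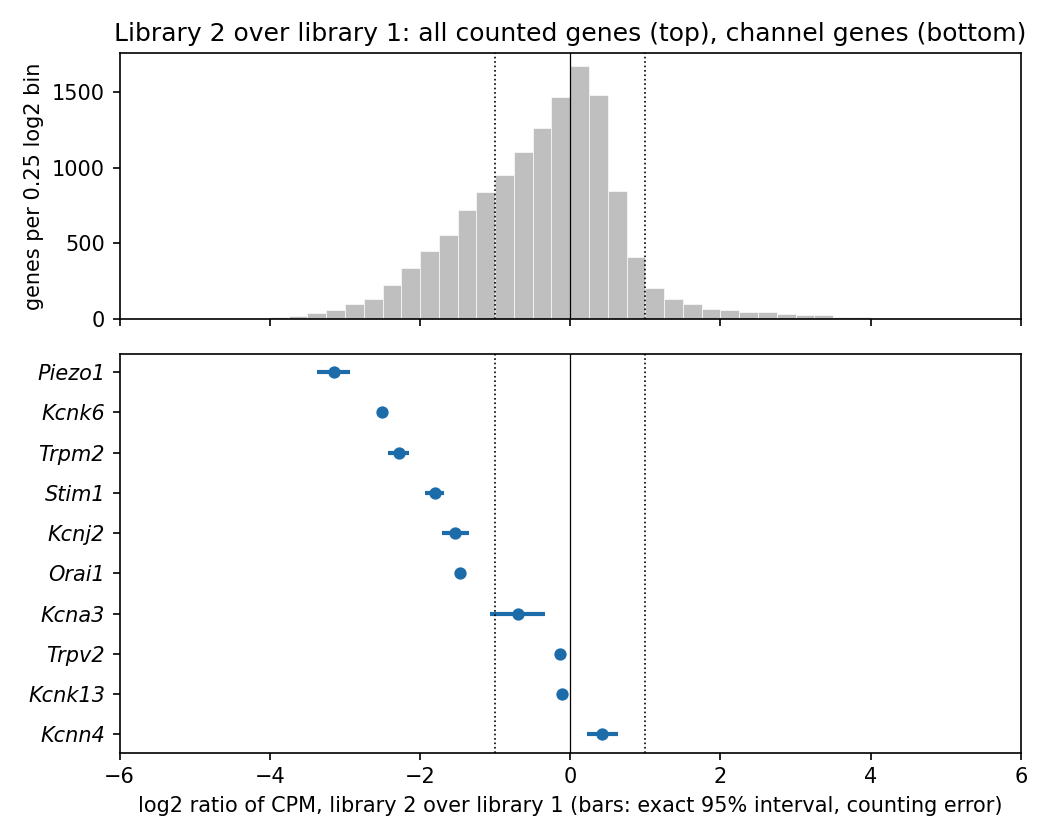
Log2 ratio of CPM (library 2 over library 1), as the number of genes per bin over all 13445 counted genes (top) and as 1 point with its exact 95% counting interval for each member (bottom), with dotted lines at 2-fold in each direction. The members run from -3.15 for Piezo1 to 0.42 for Kcnn4, and 7 of 10 lie below the median of all genes at -0.26.

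The difference between the libraries moved with transcript length. When the counted genes were split into 10 equal groups by length, the median log2 ratio was between -0.05 and 0.17 in the 5 groups of shortest transcripts and -1.05 in the group of longest transcripts, where 52.5% of genes were more than 2-fold lower in library 2. In the group with the highest GC content of 10 such groups, the median was -0.64. The members had a median transcript length of 3877.5 bases and a GC content of 54.3%, against 3106 bases and 49.2% over all counted genes. Piezo1, at 8219 bases and 59.0% GC, was in the top group for both, and Trpm2, at 7274 bases, was in the top group for length.

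Each ratio was therefore set against the median of counted genes with like length and GC content. Genes like Piezo1 had a median of -1.98 and those like Trpm2 -1.42, so that the adjusted ratios were -1.17 and -0.87. Stim1, whose like genes had a median of -1.54, came to -0.27. Kcnk6 kept an adjusted ratio of -1.77 and Orai1, a short transcript of 1875 bases whose like genes had a median of -0.18, one of -1.30. Kcnj2 came to -1.01. These 4 members (Kcnk6, Orai1, Piezo1 and Kcnj2) were more than 2-fold lower after the adjustment, against 12.7% of genes, and the median of the members was -0.69.

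On the other side, Kcnn4 was 1.16 above genes like it and was the member more than 2-fold higher after the adjustment, against 9.70% of genes. Trpv2 came to 0.70, Kcnk13 to 0.23 and Kcna3 to -0.52. Kcnk13 and Trpv2 were thus level between the libraries in CPM and above genes of like length and GC content in library 2. Kcnk12 stayed far lower in library 2 after the same adjustment (-2.55), and Kcnd1 did not (0.19).

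**Figure D3:**
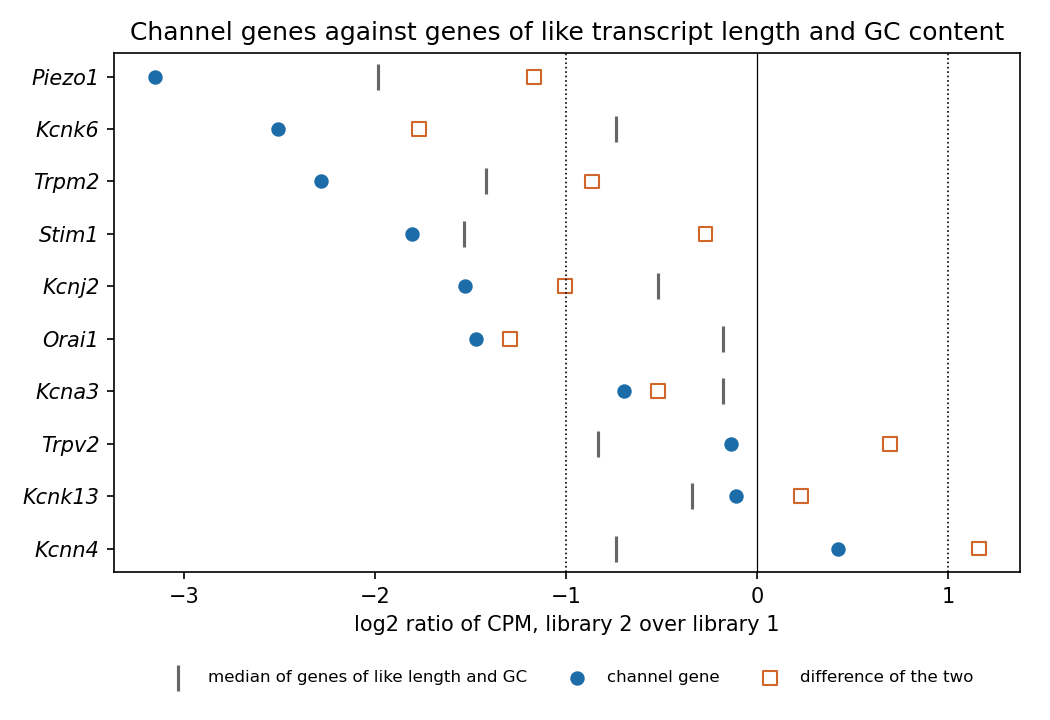
Log2 ratio of CPM (library 2 over library 1) of each member beside the median ratio of counted genes with like transcript length and GC content, with the difference between them as an open square. Piezo1 (-3.15 against -1.98), Trpm2 (-2.29 against -1.42) and Stim1 (-1.81 against -1.54) stand beside low medians, whereas Orai1 (-1.47 against -0.18) and Kcnk6 (-2.51 against -0.74) lie far below theirs.

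Reads shared with other genes touch few of these values. Of the windows of 75 bases in the longest transcript, 0 were found in another gene for 8 members, 1 of 7200 for Trpm2, and 904 of 8145 (11.1%) for Piezo1, all of the latter with Ctu2. Along aligned coding sequences, relatives shared 72.1% identical bases between Orai1 and Orai2, 73.1% between Orai1 and Orai3, 69.1% between Kcnk13 and Kcnk12 and 64.6% between Stim1 and Stim2.

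For each member the listed channel gene with the most similar pair of levels was found by the distance between log2 CPM values, over the 2 libraries alone. Trpv2 lay nearest to Orai3 (distance 0.24), Kcnk13 to Itpr2 (0.34), Piezo1 to Kcnk12 (0.34), Kcnn4 to Cracr2b (0.50), Kcnj2 to Tpcn2 (0.50), Kcna3 to Kcnab2 (0.59), Orai1 to Tmem63a (0.66) and Kcnk6 to Orai1 (0.81). Trpm2 and Stim1 lay nearest to each other (0.45). The distance takes no account of transcript length, and with 2 libraries it describes levels and not a shared pattern.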

How the data were processed

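Microglia were sorted from 2 sham mice, and cDNA was made with SMART-Seq HT and libraries with Nextera XT. After a FastQC check, the authors aligned reads to GRCm38 by HISAT2 and obtained gene counts by HTSeq, and these raw counts were deposited without normalization. Versions, annotation release and strand setting are not given in the sources used here. The labels and the methods of the study also differ in perfusion fluid and Percoll spin.

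Counts were divided by the library total (CPM) and by the longest GENCODE M21 transcript (per kilobase). Symbols were matched for 53620 of 53801 identifiers. Both libraries were placed in the group sham microglia by their titles. Genes with at least 10 counts in both were called counted, and ratios were called past 2-fold. Exact 95% binomial (Clopper-Pearson) intervals of the ratio compare 2 libraries and cover counting error only. Relative counting error depends on the counts of each gene. Several members, Kcnk6 among them (8625 and 2662 counts), had fewer counts in library 2 although it is deeper. The 2 mice limit every mean. The adjustment subtracted the median of genes in the same of 10 bins of length and of GC content, using only the GC bin if a joint bin held under 20 genes. No p-value was computed. Scripts were tested on simulated data.

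Members, channel lists, marker lists of 13 cell types, the rule for naming genes and the alternatives were chosen with earlier results of these data known. The rule named the members, their direct relatives and partners, the 3 genes with the highest level per kilobase in each of 11 channel lists, the nearest gene in level and the 2 highest marker genes of each list, from which only those needed are printed. Some items covered by this rule are not reported here. Alternatives were edgeR 4.0.16 TMM, DESeq2 1.42.0 size factors, totals without mitochondrially encoded or neutrophil genes, other thresholds, other transcript lengths and leaving out each library. Software also included Biopython 1.88, matplotlib 3.10.9, numpy 2.4.6, pandas 2.3.3, scipy 1.17.1, Python 3.11.15 and R 4.3.3.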

Additional observations from a re-analysis of the deposited data

How the results depend on the processing

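The median log2 ratio of the members was -1.50, and it was -1.25 with TMM, -1.23 with DESeq2 size factors and -0.69 after the adjustment for GC content and length. With length alone it was -0.95 and with GC content alone -1.14, both chosen after seeing the data. The median of all counted genes moved from -0.26 to -0.01 with TMM and to 0.01 with DESeq2, and the share of genes lower in library 2 among those past 2-fold moved from 81.9% to 69.2% and 67.3%. Members lower in library 2 by any amount numbered 9, beside 61.5% of counted genes. With TMM, DESeq2 or the adjustment they numbered 7, beside 50.6%, 49.5% and 49.8% of genes. The same 6 members were past 2-fold lower under TMM, DESeq2 and totals without mitochondrially encoded or neutrophil genes. The share of counted genes lower to that extent was 19.7% with TMM and 19.0% with DESeq2. It was 26.0% without mitochondrially encoded genes and 23.7% without neutrophil genes. Genes past 2-fold numbered 4257, with 6837 past 1.5-fold, 2115 past 3-fold and 7302 when 1 count sufficed. The order per kilobase changed for 3 members with merged exons, 5 with coding length and 4 with the median coding transcript, and for 4 to 7 members when 1 library was left out. By coding length Kcnk6 (230.1 CPM per kilobase) stood above Orai1 (227.9). No paired analysis was possible because the samples form a single group. Depth limits the lowest genes: 120 counts in library 1 and 130 in library 2 gave Kcna3 its wide interval. A gene at 0 may be present below 0.128 CPM in library 1 and 0.0729 CPM in library 2.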

Other observations

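Genes that move calcium between stores and cytosol were also measured. Itpr2, a receptor that releases calcium from the endoplasmic reticulum, had 5451 counts in library 1 and 7443 in library 2 (log2 ratio of CPM -0.37). Atp2a2, the pump SERCA2 that refills the store, had 4915 and 931 counts and was 9.29-fold lower in library 2, with an adjusted ratio of -2.23. Tmco1, a channel against store overload, had 3711 and 8406 counts (log2 ratio 0.36). Of the 9 store channels and pumps counted, 4 were more than 2-fold lower and 0 more than 2-fold higher in library 2, beside 25.9% and 5.74% of all counted genes. Atp2b1, a pump of the plasma membrane, was at 134.7 and 94.6 CPM, and the exchanger Slc8a1 had 450 and 171 counts (log2 ratio -2.21). Of the 18 voltage-gated calcium channel genes 6 were counted, beside 25.0% of all listed genes, and Cacnb2, a beta subunit, had 232 and 95 counts.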
